A study of Mus musculus with 136 samples.

Results

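Expression of 9 genes of the apolipoprotein and lipoprotein assembly group (Apoa1, Apoa2, Apoa4, Apob, Apoc1, Apoc2, Apoe, Apom and Mttp) was examined in embryos and visceral yolk sacs of the NOD mouse, a strain in which diabetes arises spontaneously. The genes were taken by symbol, and all 9 were among the 47643 genes of the deposited table. Concepti of diabetic and of normoglycemic (normal) NOD females, both mated to normoglycemic NOD males and fed chow, were dissected at 8.5 days of gestation. Females were diabetic from their own autoimmune disease, so the groups differed in the dam, and no dam contributed to both. The glucose labels of the dams ran from 105 to 164 mg/dl in normal pregnancies and from 423 to 595 mg/dl in 11 of the 12 diabetic litters, and the label of the remaining litter gave only a lower bound. Females of this strain become hyperglycemic as young adults, and ages of the single dams are not given in the sources used here.

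Each of 66 concepti gave 1 embryo library and 1 yolk sac library, and the embryo's somite pairs staged both. At 5 to 6 somite pairs there were 17 concepti from normal and 17 from diabetic pregnancies, and at 7 to 9 somite pairs 16 and 16. The concepti came from 22 litters (10 normal and 12 diabetic), and 10 litters held both stages, so littermates shared a dam while the tests took concepti as independent. The libraries held 1017901 to 5658850 counts, with a median of 2302819, and 4 duplicate libraries of 2 concepti were kept aside. Each count is 1 transcript molecule read at its 3′ end, so values are not divided by gene length. Levels are given as normalized counts, which are counts divided by the size factor of the library.

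Apolipoproteins are the protein part of lipoproteins, the particles that carry lipids in blood and other fluids. Apolipoprotein B forms the backbone of particles rich in triglyceride, and the microsomal triglyceride transfer protein, encoded by Mttp, loads lipid onto it in the endoplasmic reticulum. The visceral endoderm of the yolk sac, the layer that faces the mother, takes up and secretes lipoproteins for the embryo before the placenta works, and loss of Apob or Mttp is lethal to mouse embryos.

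In GENCODE M21 coordinates on mm10, the build named in the submitters' processing notes, Apoa1 lies at chr9:46228580-46230466 and Apoa4 at chr9:46240696-46243459, both on the plus strand. Apoc1 (chr7:19689481-19692660), Apoc2 (chr7:19671579-19677941) and Apoe (chr7:19696109-19699188) lie together on the minus strand of chromosome 7. The remaining members are Apoa2 at chr1:171225054-171226379 and Apob at chr12:7977648-8016835 on the plus strand, and Apom at chr17:35128997-35132050 and Mttp at chr3:138089854-138144968 on the minus strand. Apob has 29 exons and Mttp 18, while the other members have 3 to 6. Apoc2 overlaps Gm44805 on the same strand, so the split of counts between them is uncertain, although Gm44805 held 5 counts over all yolk sacs where Apoc2 held 2811. Mttp and Apoa4 overlap antisense genes, and whether the counting used strand is not given in the sources used here.

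The stretches just before the annotated starts of 4 members are printed because the 3 A apolipoprotein genes rose between stages in yolk sacs while Apob did not pass that test, and they come from RefSeq promoters of GRCm38.p6. Capitals mark a match to the HNF4 consensus CAAAGTNCA or to TATAAA, both searched on either strand; HNF4 is a nuclear receptor of liver and visceral endoderm. All run 5′ to 3′ on the plus strand. Apoa1 is chr9:46228380-46228579, Apoa2 chr1:171224804-171225053, Apoa4 chr9:46240594-46240695 and Apob chr12:7977427-7977647.
Apoa1: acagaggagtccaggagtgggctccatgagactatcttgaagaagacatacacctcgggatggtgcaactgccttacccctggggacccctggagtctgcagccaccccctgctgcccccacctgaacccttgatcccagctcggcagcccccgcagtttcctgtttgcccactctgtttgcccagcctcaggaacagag
Apoa2: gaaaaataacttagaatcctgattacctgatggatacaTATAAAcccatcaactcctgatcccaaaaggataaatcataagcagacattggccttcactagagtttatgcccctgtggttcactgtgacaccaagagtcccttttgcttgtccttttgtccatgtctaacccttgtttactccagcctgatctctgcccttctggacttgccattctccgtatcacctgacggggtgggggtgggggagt
Apoa4: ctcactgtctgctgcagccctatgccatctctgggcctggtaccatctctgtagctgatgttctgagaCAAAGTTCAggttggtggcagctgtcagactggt
Apob: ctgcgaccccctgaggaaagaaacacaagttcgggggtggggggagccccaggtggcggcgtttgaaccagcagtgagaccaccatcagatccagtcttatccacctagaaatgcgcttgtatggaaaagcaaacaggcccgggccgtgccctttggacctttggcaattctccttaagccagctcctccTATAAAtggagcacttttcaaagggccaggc

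Of 11 promoter entries that matched 8 of the members, 1 (Apoa4) held the HNF4 letters, and 1.19% of all 32851 promoters of the same length did. TATAAA was found in 3 of 11 entries (Apoa2, Apob and an Apoe entry) and in 12.4% of all promoters. These are matches of letters only, and an entry without a match can hold a site spelled otherwise. The paper on these data cites HNF4α as needed for Apob transcription in visceral endoderm, while the Apob entry held no match to the HNF4 letters.

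In the yolk sac, all 9 genes were detected in each of the 66 libraries. Apoe, a ligand of lipoprotein receptors, had the highest mean level in each of the 4 groups, from 4415 ± 1129 normalized counts (SD, n = 17, diabetic, 5 to 6 somite pairs) to 5506 ± 1003 (SD, n = 16, diabetic, 7 to 9). Apoa1 and Apoa2, the main proteins of high-density lipoprotein, stood at 1683 ± 704 and 452 ± 242 in normal yolk sacs at 5 to 6 somite pairs, and Apoa4, which intestine and liver secrete on lipid-rich particles, at 517 ± 133 (SD, n = 17 each). Apob stood at 2023 ± 890, Apom, a carrier of sphingosine-1-phosphate, at 1127 ± 327, and Mttp at 647 ± 114 in the same 17 libraries.

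Apoc1 (99.0 ± 39.2) and Apoc2 (31.3 ± 12.9), small exchangeable apolipoproteins of which Apoc2 activates lipoprotein lipase, were lowest in these 17 yolk sacs. Between neighbours in this order, the ranges of Apob and Apoa1, of Apoa1 and Apom, of Apom and Mttp, of Mttp and Apoa4 and of Apoa4 and Apoa2 overlapped. The lowest Apoe value in the 17 libraries, 3523, exceeded the highest Apob value, 3484, and the highest Apoc2 value, 66.2, exceeded the lowest Apoc1 value, 49.4. The 9 genes summed made up 0.449% ± 0.0595 of all counts in these libraries and 0.593% ± 0.0911 in diabetic yolk sacs at 7 to 9 somite pairs (SD, n = 16).

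In embryos the same genes were low. Apoe was highest there also, with means of 357 ± 82.5 and 363 ± 166 normalized counts at 5 to 6 somite pairs (SD, n = 17, normal and diabetic) and 248 ± 84.6 and 329 ± 194 at 7 to 9 (SD, n = 16 each). Group means of the other 8 genes lay between 0.483 (Apoc2) and 81.9 (Apob) normalized counts, and Apoc2 had no count in 5 of 17 normal and 5 of 17 diabetic embryos at 5 to 6 and in 11 of 16 and 8 of 16 at 7 to 9 somite pairs. A count of 0 allows up to 3 molecules in such a library by counting error alone. The 9 genes summed made up 0.0183% to 0.0266% of embryo counts, as group means.

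**Figure D1:**
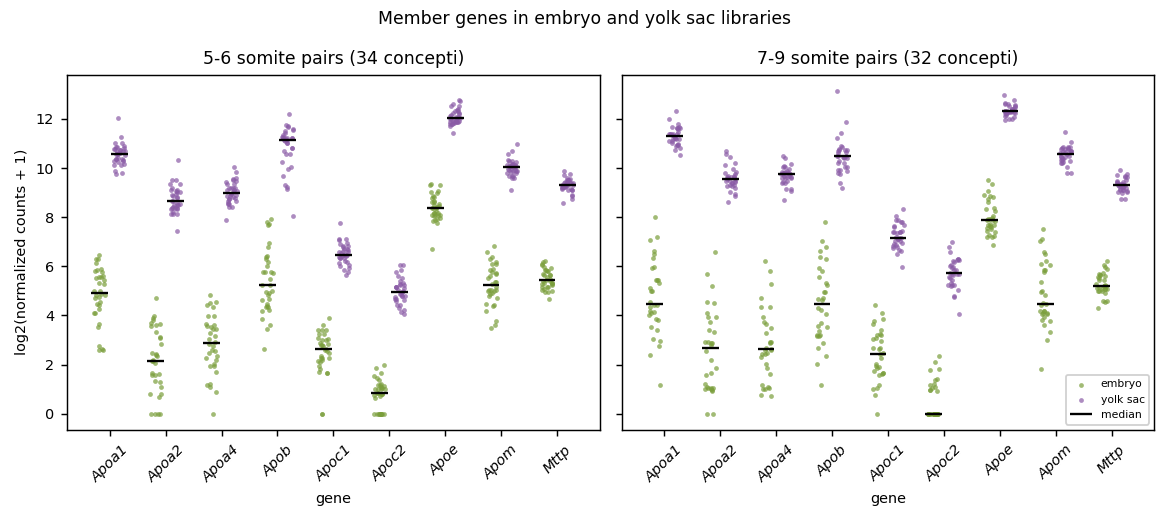
Levels of the 9 genes, as log2(normalized counts + 1), in embryo and yolk sac libraries at 5 to 6 (34 concepti) and 7 to 9 somite pairs (32 concepti), with 1 point per library and a line at the median. For each gene the yolk sac points lie above the embryo points, with Apoe the highest gene in both tissues.

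Which tissue carries these transcripts was tested by comparing yolk sacs with embryos at each stage. All 9 genes were higher in yolk sac at both stages, where 39.4% of all 11677 genes tested at 5 to 6 somite pairs and 38.7% of 11577 at 7 to 9 were higher (edgeR quasi-likelihood test, Benjamini-Hochberg adjusted p under 0.05). The log2 differences at 5 to 6 somite pairs ran from 3.70 ± 0.11 for Apoe (SE, adjusted p = 7.5e-43) to 6.36 ± 0.22 for Apoa2 (adjusted p = 3.2e-40), with a median of 5.17 beside 0.00 over all genes tested. In the later concepti they ran from 4.02 ± 0.10 for Mttp to 6.45 ± 0.23 for Apoa4, with a median of 5.48 beside -0.04 over all genes. In tests of embryos alone, 5 of the 9 members passed the filter on low counts for diabetes and 7 for stage. Members below the filter in embryos passed here through the yolk sac, so these medians lean to genes that are high there. Each gene was higher in the yolk sac than in the embryo of the same conceptus in 34 of 34 and in 32 of 32 concepti.

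Set against its own yolk sac, the embryo's level was 0.923% for Apoa2 and 7.90% for Apoe at 5 to 6 somite pairs (medians over concepti), the lowest and highest of the 9. At 7 to 9 somite pairs the range was from 0% for Apoc2 to 5.91% for Mttp. The 10 marker genes of the visceral endoderm (Afp, Ttr, Rbp4, Cubn, Amn and 5 others) had medians of 3.22% and 1.85% by the same measure, and the members 2.77% and 1.31%. In bulk samples, fewer cells of a type and less RNA per cell cannot be told apart. The difference between tissues did not pass the test for a dependence on maternal diabetes for any member, with 0% of all genes called at 5 to 6 and 0.389% at 7 to 9 somite pairs. Neither edgeR nor DESeq2 called a member there, and at an unadjusted p under 0.05 edgeR gave 0 and 1 member (Apoa4 at 7 to 9, -1.30 ± 0.46, adjusted p = 0.12). Over all genes tested, 895 and 2046 had an unadjusted p under 0.05 there.

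Cell type markers followed the tissue labels. Of the visceral endoderm markers 9 of 9 tested were higher in yolk sac at each stage, as were 6 of 6 markers of primitive erythroid cells, while 10 of 10 neural and somite markers were higher in embryos. Of the yolk sac mesoderm and endothelium markers, 8 of 9 and 7 of 9 were higher in yolk sac, and of the parietal endoderm markers 7 of 8 and 5 of 6. In both lists 1 marker was lower at each stage. Of the maternal decidua markers 4 of 7 passed the filter, and 2 of these 4 were higher and 1 lower in yolk sac at both stages. Trophoblast (2 of 3 higher, then 1 of 3, with 1 lower at both) and macrophage markers (1 of 1 higher at both) were mostly below the filter.

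Among embryos the members varied together. Deviations from group means of log2(normalized counts + 1) were compared with the mean deviation of the 10 visceral endoderm markers over 66 embryos. Pearson's r was 0.95 for Apoa1 and for Apom, 0.87 for Apoa4, 0.86 for Apoa2 and Apoe, 0.84 for Apob, 0.75 for Mttp, 0.71 for Apoc1 and 0.43 for Apoc2, with Spearman's rho from 0.41 to 0.95. Within litters with at least 2 concepti of a group, 53 embryos gave 0.96 for Apoa1 and 0.95 for Apom. The genes share library and normalization, and these correlations are descriptions.

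Beside these values, the summed level of the visceral endoderm markers spanned 314 to 4020 normalized counts in diabetic embryos at 7 to 9 somite pairs and 397 to 2431 in normal embryos of that stage. In yolk sacs the lowest sum in any group was 13623. The genes nearest to the mean of the members other than Apoe, over 66 embryos, were Afp (0.94), Ttr (0.93), Rbp4 (0.93), Slc2a2 (0.93) and Ctsh (0.92), the first 4 of which are on the marker list. How far visceral endoderm in the embryo samples sets the members' levels was not tested.

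In yolk sacs the members other than Apob also varied together, less closely. The 28 pairs without Apob had Pearson's r from 0.36 to 0.87 over 66 yolk sacs (median 0.59), highest for Apoa1 with Apoa2, whereas the 8 pairs with Apob lay between -0.01 and 0.22. In embryos the 36 pairs had a median of 0.70, and pairs with Apob reached 0.83. With the visceral endoderm markers, r in yolk sacs was 0.80 for Apoa2 and 0.70 for Apoa1 but -0.08 for Apob. The genes nearest to the mean of the members without Apoe in yolk sacs were Fxyd2 (0.80), 2200002D01Rik (0.78), Folr1 (0.77), Nostrin (0.77) and Gabarap (0.77), and Folr1 encodes a folate receptor.

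**Figure D2:**
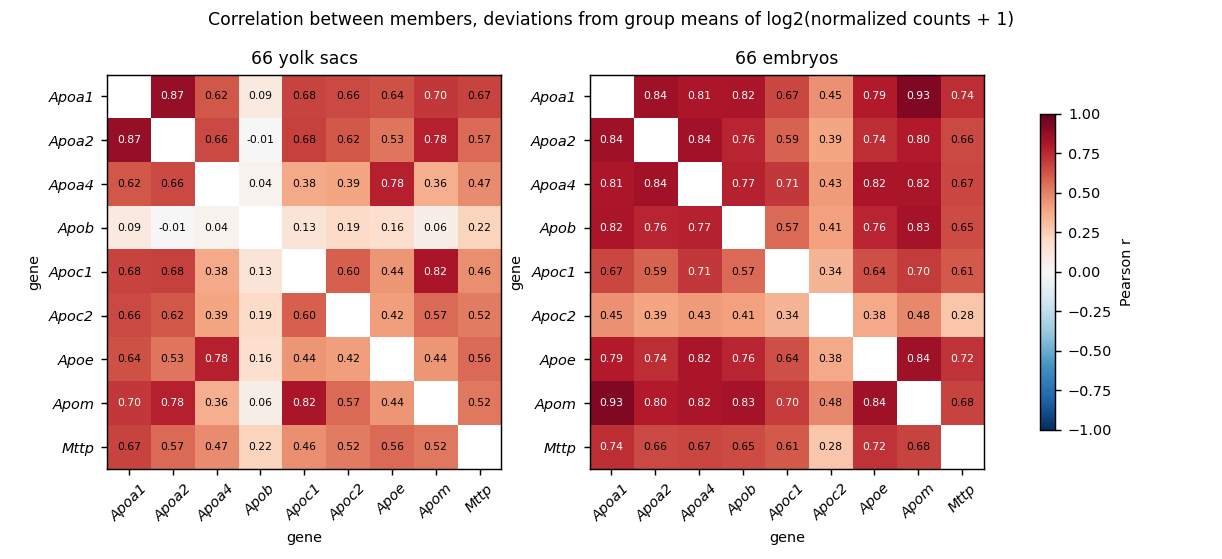
Pearson correlation between each pair of the 9 genes, over 66 embryos and over 66 yolk sacs, of deviations from group means of log2(normalized counts + 1); colour gives r. In embryos all pairs are positive, and in yolk sacs the row and column of Apob stand apart with r of at most 0.22.

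Whether the yolk sac's expression of these genes changed between stages was asked separately in normal and diabetic pregnancies. Most of the plasma apolipoproteins were higher at 7 to 9 than at 5 to 6 somite pairs. In normal pregnancies 6 of 9 members rose (Apoa1, Apoa2, Apoa4, Apoc1, Apoc2 and Apom), where 5.71% of 10857 genes did. In diabetic pregnancies 7 of 9 rose, the same 6 and Apoe, where 18.9% of genes did. None fell. The median log2 difference of the 9 was 0.61 in normal and 0.70 in diabetic yolk sacs, beside -0.01 and 0.03 over all genes tested.

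Apoa1 lay between 933 and 4158 normalized counts in normal yolk sacs at 5 to 6 somite pairs (median 1533) and between 1459 and 5061 at 7 to 9 (median 2555). In diabetic pregnancies it lay between 863 and 2444 (median 1522) and between 1916 and 4112 (median 2542). The groups overlapped, and the lowest value of the later diabetic yolk sacs exceeded the median of the earlier ones. The log2 differences were 0.63 ± 0.14 (SE, edgeR adjusted p = 0.00225) in normal and 0.85 ± 0.14 (adjusted p = 4.6e-06) in diabetic pregnancies.

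Apoa2 had medians of 383 and 731 normalized counts in normal and 497 and 796 in diabetic yolk sacs, with ranges of 277 to 1288, 392 to 1658, 174 to 729 and 585 to 1531. It rose by 0.76 ± 0.18 (adjusted p = 0.00275) and 0.90 ± 0.18 (adjusted p = 5.9e-05, edgeR). Apoa4 had medians of 519 and 806 in normal and 495 and 879 in diabetic yolk sacs, with ranges of 338 to 749, 412 to 1143, 236 to 1047 and 563 to 1445. Its log2 differences were 0.65 ± 0.14 (adjusted p = 0.00102) and 0.70 ± 0.14 (adjusted p = 5.9e-05). For both genes the ranges of earlier and later yolk sacs overlapped in each condition.

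Apom had medians of 1042 and 1378 in normal and 1078 and 1626 in diabetic yolk sacs. It rose by 0.40 ± 0.12 (edgeR adjusted p = 0.0225) and 0.67 ± 0.12 (adjusted p = 1.0e-05). Its ranges were 778 to 2038 and 882 to 2799 in normal, and 552 to 1265 and 1175 to 2139 in diabetic yolk sacs, so that the diabetic groups overlapped only between 1175 and 1265. Without the filter on low counts its call in normal yolk sacs was lost (0.39, adjusted p = 0.0555).

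The 2 C apolipoproteins rose from low levels. Apoc1 had medians of 96.1 and 141 in normal and 86.1 and 166 in diabetic yolk sacs, with log2 differences of 0.61 ± 0.16 (edgeR adjusted p = 0.0103) and 0.93 ± 0.16 (adjusted p = 7.5e-06). Apoc2 had medians of 30.3 and 56.9 in normal and 33.3 and 51.1 in diabetic yolk sacs, with log2 differences of 0.87 ± 0.20 (adjusted p = 0.00225) and 0.71 ± 0.19 (adjusted p = 0.00281). Ranges of the earlier and later yolk sacs overlapped for both genes.

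Apoe differed by 0.17 ± 0.10 in normal (adjusted p = 0.268) and rose by 0.33 ± 0.10 in diabetic yolk sacs (adjusted p = 0.00649, edgeR). The genes that form and load the apolipoprotein B particle did not pass the test: Apob differed by -0.19 ± 0.27 (adjusted p = 0.719) and -0.39 ± 0.27 (adjusted p = 0.272). Mttp differed by 0.03 and 0.01, with 95% confidence intervals of -0.16 to 0.22 and -0.18 to 0.20. Mttp ranged from 381 to 961 normalized counts over all 66 yolk sacs, with the lowest ratio of highest to lowest value among the 9 genes.

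**Figure D3:**
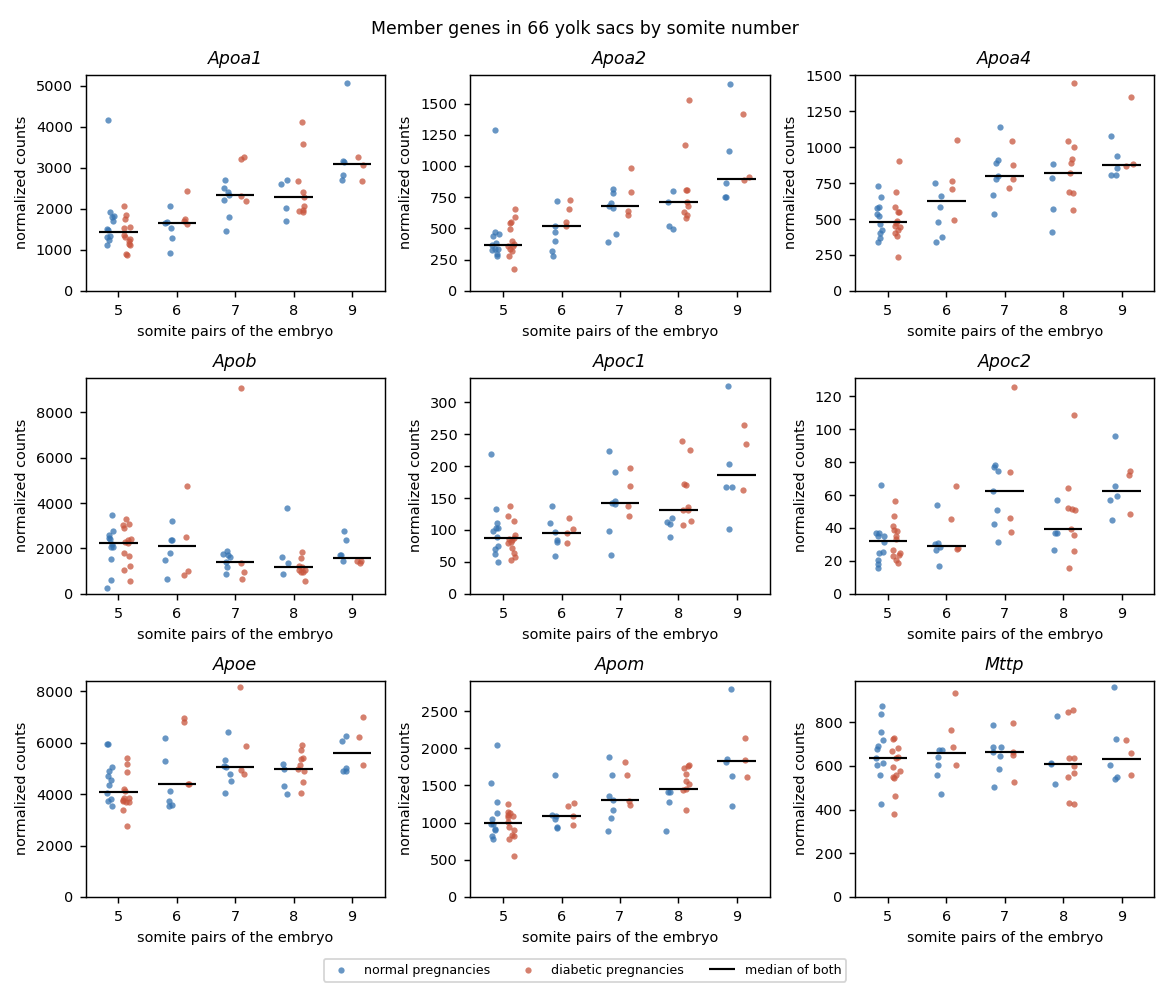
Normalized counts of each gene in the 66 yolk sacs against the somite pairs of the embryo, with normal pregnancies on the left and diabetic ones on the right of each somite number, and a line at the median of both. Apoa1 medians run from 1434 at 5 to 3097 at 9 somite pairs, while Mttp stays between 608 and 661.

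By single somite number the medians of Apom ran 997, 1091, 1305, 1446 and 1823 normalized counts from 5 to 9 somite pairs (24, 10, 11, 13 and 8 yolk sacs, both conditions). Those of Apoa2 ran 370, 517, 683, 712 and 898 and those of Apoa4 480, 624, 799, 821 and 875. Apob ran 2257, 2087, 1414, 1179 and 1576. Apom, Apoa2 and Apoa4 thus had a higher median at each added somite pair, and Apob had its lowest at 8.

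The difference in stage effect between diabetic and normal pregnancies did not pass the test for any member in yolk sacs, where 0% of 10857 genes were called (634 genes and 0 members at an unadjusted p under 0.05 in edgeR, 0 members in DESeq2). The interaction was largest for Apoc1, at 0.32 ± 0.23, and smallest in size for Mttp, at -0.02 ± 0.14. Since a litter could hold both stages, stages were also compared within litters. Only the 10 litters with both stages inform that comparison. The diabetic ones among them were D24M15, D28M23 and D28M36, and the rest were normal. In normal litters Apoa1 (0.61), Apoa2 (0.80), Apoa4 (0.87) and Apoc2 (0.84) were still called, and Apoc1 (0.53, edgeR adjusted p = 0.0576) and Apom (0.30, adjusted p = 0.178) were not. In diabetic litters Apoa1 (0.69), Apoa2 (0.89), Apoa4 (0.90), Apoc1 (0.96) and Apom (0.70) were called, and Apoc2 (0.56, adjusted p = 0.157) and Apoe (0.30, adjusted p = 0.182) were not.

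Other markers moved with stage in the same yolk sacs. Of 9 tested visceral endoderm markers, 3 rose and 1 fell in normal yolk sacs (5.71% and 2.95% of all genes) and 6 rose in diabetic ones (18.9%), and the summed level of the list had medians of 27640 and 37320 normalized counts in normal (ranges 20439 to 64173 and 27971 to 61690) and 26056 and 35714 in diabetic pregnancies (13623 to 34592 and 20660 to 52472). Primitive erythroid markers rose in 5 of 6 and 6 of 6, and their summed level went from a median of 8712 to 18267 in normal (5682 to 23753, then 8055 to 42414) and from 8481 to 18413 in diabetic yolk sacs (5360 to 13661, then 14335 to 45601). No marker of either list was without counts in any of these groups. Mesoderm and endothelium markers rose for 5 of 9 in normal yolk sacs, and in diabetic ones 4 rose and 2 fell (14.3% of all genes fell there). From normal to diabetic yolk sacs, parietal endoderm markers rose for 0 and 4 of 8, decidua markers for 1 and 1 of 4 and macrophage markers for 0 and 1 of 2. Trophoblast markers fell for 0 and 2 of 3, and neural and somite markers for 0 and 1 of 1. The part of cell composition in the members' change was not tested.

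In embryos no member passed the test for stage, where 7 of 9 were tested and 13.7% of 11304 genes were called in normal, 31.4% in diabetic pregnancies and 8.7% for the interaction. The edgeR count of members was 0 in each, and 1, 1 and 0 members had an unadjusted p under 0.05, with 0 in each by DESeq2. Over all genes tested, 3242, 4776 and 3171 had an unadjusted p under 0.05 in edgeR. Apoe had the smallest p in normal embryos (-0.52 ± 0.20, adjusted p = 0.0682), and Apoa2 in diabetic embryos (1.19 ± 0.49, adjusted p = 0.0583). Fits that used litter called Apoe, for stage in normal embryos with litter as a random block (-0.55, limma adjusted p = 0.0390) and for the interaction with litter as a fixed block (1.001, edgeR adjusted p = 0.0464).

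The question of maternal diabetes was asked at each stage and in each tissue. In yolk sacs no member passed the test at either stage. All genes considered, 0% of 10250 were called at 5 to 6 somite pairs (863 at an unadjusted p under 0.05) and 0.0194% of 10317 at 7 to 9 (1122). The edgeR test called 0 of 9 members at both stages, as it did without adjustment of p (0 and 0 under 0.05), and DESeq2 also gave 0 at both. The median log2 difference of the members was -0.03 and 0.12, beside 0.00 and 0.02 over all genes tested.

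For Apoa1 the difference between diabetic and normal yolk sacs was -0.16 (95% confidence interval -0.46 to 0.13) at 5 to 6 somite pairs and 0.05 (-0.21 to 0.32) at 7 to 9. For Apoe it was -0.03 (-0.25 to 0.18) and 0.12 (-0.06 to 0.30). For Mttp it was -0.03 (-0.22 to 0.16) and -0.06 (-0.26 to 0.14). Intervals were widest for Apob, at 0.11 (-0.41 to 0.62) and -0.08 (-0.62 to 0.46). Groups overlapped for each of the 9 genes.

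The other members in yolk sacs had log2 differences between -0.15 (Apom) and 0.17 (Apoc2) at 5 to 6 somite pairs and between 0.01 (Apoc2) and 0.18 (Apoa2, Apoa4 and Apoc1) at 7 to 9. Over these 5 genes the intervals reached from -0.43 to 0.53 at the earlier and from -0.38 to 0.51 at the later stage. These intervals take littermates as independent. Without litter D28M36 the difference of Apob at 7 to 9 somite pairs was -0.59 (edgeR adjusted p = 0.194).

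**Figure D4:**
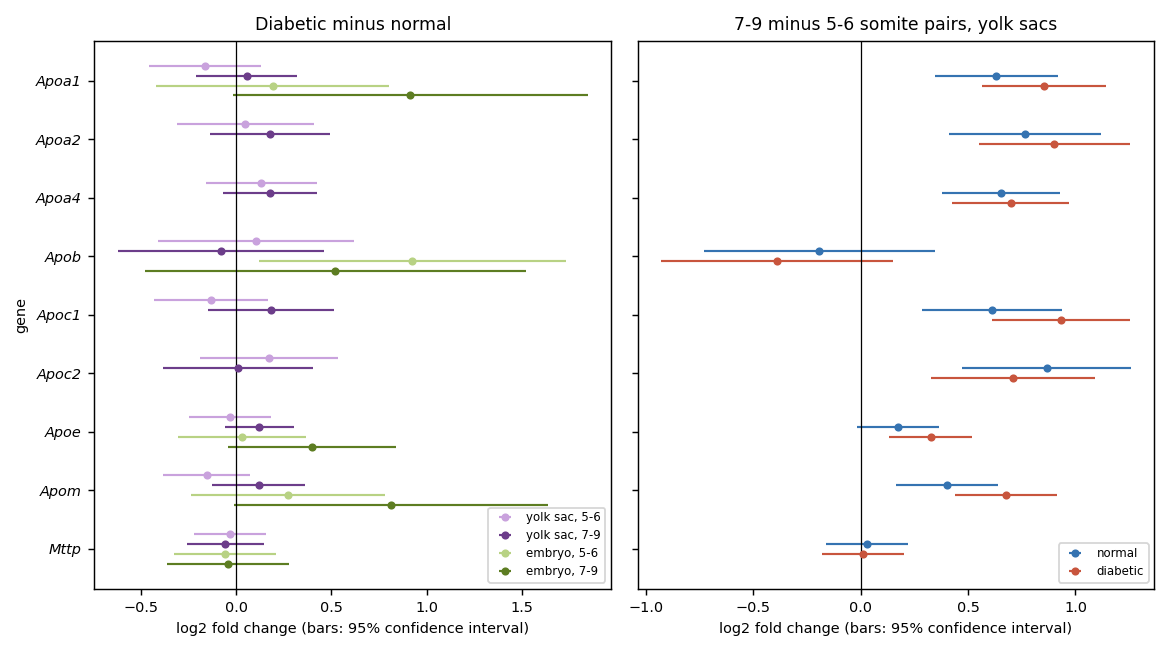
Log2 fold changes with 95% confidence intervals from edgeR, diabetic minus normal in each tissue and stage (left) and later minus earlier yolk sacs in normal and diabetic pregnancies (right). All but 1 interval on the left include 0, the exception being Apob in embryos at 5 to 6 somite pairs, and on the right Apoa1, Apoa2, Apoa4, Apoc1, Apoc2 and Apom lie above 0 in both conditions.

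In embryos, 5 of 9 members (Apoa1, Apob, Apoe, Apom and Mttp) passed the filter, and 1.46% of 11004 genes at 5 to 6 and 9.09% of 10628 at 7 to 9 somite pairs were called. No member was called by edgeR, with 1 and 0 at an unadjusted p under 0.05, where 2313 and 2916 of all genes tested were. DESeq2 called 0 and 1 member, and its share over all genes is not given here. Apob at 5 to 6 somite pairs lay between 10.02 and 108 normalized counts in normal (median 28.8) and between 5.22 and 241 in diabetic embryos (median 37.1). The groups overlapped through most of their range, and the log2 difference was 0.92 ± 0.40 (SE, adjusted p = 0.18). Litter D28M53 gave 4 of the 17 diabetic embryos of this stage, and without it the difference was -0.12.

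At 7 to 9 somite pairs Apoa1 lay between 1.27 and 80.5 normalized counts in normal (median 21.4) and between 4.25 and 256 in diabetic embryos (median 26.9). Apom lay between 2.53 and 90.5 (median 20.6) and between 7.09 and 183 (median 30.7). The groups overlapped, with the highest values among diabetic embryos, and the log2 differences were 0.91 ± 0.46 for Apoa1 (edgeR adjusted p = 0.19) and 0.81 ± 0.41 for Apom (adjusted p = 0.187). With litter as a random block they were 0.25 and 0.49 (limma adjusted p = 0.835 and 0.592), and leaving out litter N28M07 gave 1.303 and 1.06. Apoe differed by 0.40 (95% confidence interval -0.04 to 0.84), Apob by 0.52 (-0.48 to 1.52) and Mttp by -0.04 (-0.36 to 0.28). Summed visceral endoderm markers had medians of 876 and 1025 in these normal and diabetic embryos, and their part in the differences was not tested.

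Apoa4 was below the filter in the main embryo tests for diabetes. At 7 to 9 somite pairs it lay between 0.717 and 19.6 normalized counts in normal and between 0.670 and 72.5 in diabetic embryos (medians 4.50 and 7.73). DESeq2 called it (1.60, adjusted p = 0.0402), whereas edgeR without the filter did not (adjusted p = 0.0569), and counts summed per litter gave 1.62 (adjusted p = 0.104). Litter D24M15 gave 7 of the 16 diabetic concepti of this stage, and its embryo G held the highest Apoa4 value. With the duplicate library of that embryo in its place, the DESeq2 difference was 1.23 (adjusted p = 0.109).

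That embryo gave an original and a duplicate library, which differed for the members. Apoa1 stood at 258 normalized counts in the original and 66.3 in the duplicate library of embryo D24M15G, Apoa2 at 96.9 and 18.6, Apoa4 at 73.1 and 15.4, Apom at 184 and 46.1, and Apob at 222 and 67.1, with size factors estimated over originals and duplicates together. These are 3.31 to 5.21 times higher in the original, while Apoe was 2.01 and Mttp 1.56 times higher. In the yolk sac of the same conceptus the members' original over duplicate ratios were 0.893 to 1.08, in embryo N28M06C 0.732 to 1.14, and in its yolk sac 0.932 to 1.03. With duplicates in place of originals, the diabetic minus normal differences in embryos at 7 to 9 somite pairs were 0.55 for Apoa1, 0.55 for Apom, 0.29 for Apoe, 0.15 for Apob and -0.11 for Mttp, none called by edgeR.

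**Figure D5:**
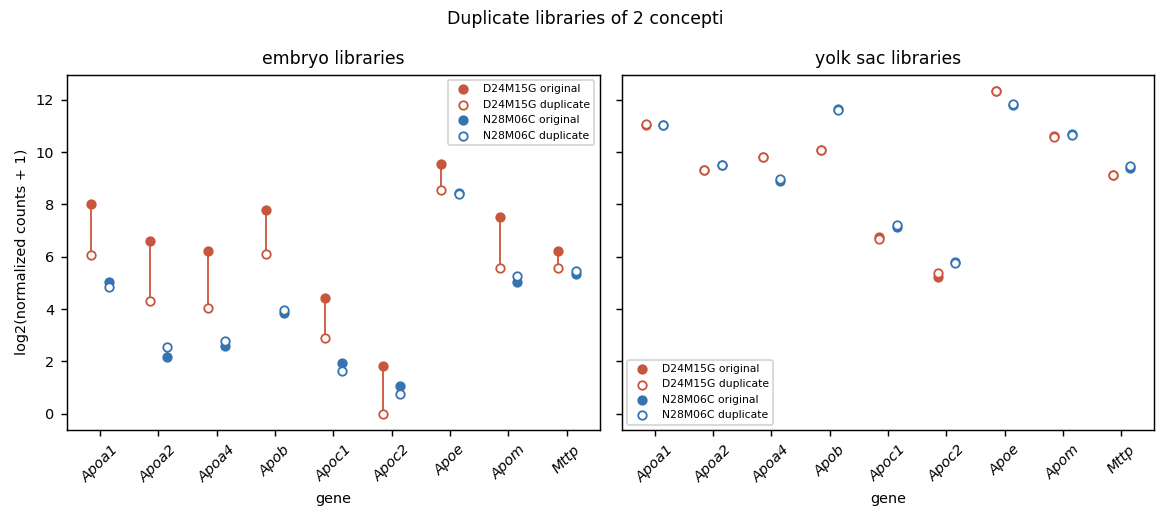
Levels of the 9 genes, as log2(normalized counts + 1), in the original (filled) and duplicate (open) libraries of embryos and yolk sacs of concepti D24M15G and N28M06C, joined by a line. The embryo of D24M15G shows the only wide gaps, with Apoa1 at 258 and 66.3 normalized counts before the log.

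Apob, whose transcript of 13934 bases is the longest of the 9 by far, varied most between yolk sacs. It ran from 265 normalized counts in N28M06A, a normal yolk sac at 5 somite pairs with 2589256 counts, to 9082 in D28M36C, a diabetic yolk sac at 7 somite pairs and the shallowest library. N28M06A also held the highest Apoa1 value of the earlier yolk sacs, 4158. Over 66 yolk sacs, r of Apob with library depth was -0.36, and that of the other members -0.12 to 0.13. Duplicate yolk sac libraries gave Apob values of 1072 and 1097, and of 3246 and 3139.

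Genes that varied most like Apob in yolk sacs, picked after their values were seen, included Akap9, Eea1 and Arhgap5 (r = 0.89 each, n = 66 yolk sacs). N28M06A was the lowest of 66 yolk sacs for all 3 of these genes, and D28M36C was the highest for Akap9 and Eea1 and next to highest for Arhgap5. The 100 genes most like Apob had a median transcript length of 6926 bases and 30.6% A, against 3215 bases and 25.3% over 9945 genes. For each other member the 100 most like genes had a median length of 1078 to 2215 bases. What library quality contributes to the values of Apob was not tested.

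Other genes of the pathway were counted from lists by role. Of all genes tested, 39.4% and 38.7% were higher in yolk sac at 5 to 6 and 7 to 9 somite pairs, and 39.8% and 42.6% were lower. A listed gene could pass the filter on low counts through 1 tissue only. In diabetes tests of single tissues at 5 to 6 somite pairs, 15 assembly genes passed in yolk sacs and 11 in embryos. For other apolipoproteins these numbers were 5 and 2, for regulators 15 and 13, for receptors 11 and 14 and for lipase genes 4 and 5. Counts and medians of the lists thus lean to the tissue where their genes are high. Of the genes of lipoprotein assembly and export, 13 of 15 tested were higher in yolk sac at both stages and none lower (median log2 difference 1.21 and 1.18, beside 0.00 and -0.04 over all genes). The largest differences at 5 to 6 and 7 to 9 somite pairs were those of A1cf (5.16 and 4.83), a cofactor of Apob mRNA editing, Soat2 (5.13 and 5.56), which makes cholesteryl esters, Pla2g12b (5.05 and 5.53), Cideb (4.96 and 5.77) and the triglyceride enzyme Dgat2 (3.03 and 2.93). Apobec1, the editing enzyme itself, was close to 0 in all groups, with group means of at most 0.252 normalized counts.

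Other apolipoproteins were tested for 5 of 14 genes, and 4 were higher in yolk sac, led by Apoc3 (5.59 and 5.65) and Apoa5 (3.72 and 4.27), while Apool was lower (-0.23 and -0.38). Their median was 0.79 and 1.01. Of the receptors and their partners, 6 of 14 were higher and 6 lower at 5 to 6 somite pairs, and 7 and 6 at 7 to 9, with medians of -0.01 and 0.02, close to the shares over all genes. The endocytic adaptor Dab2 (3.83 and 4.05), the high-density lipoprotein receptor Scarb1 (2.38 and 2.50) and megalin, encoded by Lrp2 (2.35 and 2.66), were higher in yolk sac. Vldlr (-2.90 and -3.01) and Lrp8 (-2.21 and -2.26) were higher in embryos.

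Transcriptional regulators were higher in yolk sac for 12 of 17 and 11 of 16 tested and lower for 3 at both stages, with medians of 1.07 and 1.12. Creb3l3 (5.93 and 6.16) and Hnf4a (5.35 and 5.90), regulators of liver genes, had the largest differences, and Nr2f1 (-4.90 and -5.62) and Foxa1 (-3.03 and -2.47) were lower. Lipases and remodelling genes were higher for 2 of 6 and 3 of 6 and lower for 2 of 6 at both stages, with Lipa, the lysosomal acid lipase, higher (0.96 and 1.28) and the phospholipid transfer protein gene Pltp lower (-0.54 and -1.55). The medians were 0.11 and 0.26, and without the filter Pltp was not called at the earlier stage (adjusted p = 0.0573).

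Between stages in yolk sacs, 5.71% of all genes rose and 2.95% fell in normal pregnancies, and 18.9% rose and 14.3% fell in diabetic ones. Of the lists, 2 of 15 assembly genes rose in normal pregnancies, and 5 rose and 3 fell in diabetic ones (medians 0.08 and 0.10, beside -0.01 and 0.03 over all genes). Mogat2 rose by 0.57 ± 0.10 and 0.80 ± 0.10 (SE, edgeR adjusted p = 6.0e-05 and 2.1e-09) and Soat2 by 0.40 ± 0.09 and 0.61 ± 0.09. Of the regulators, 3 rose and 1 fell in normal and 5 rose and 1 fell in diabetic yolk sacs (medians 0.15 and 0.17). Hnf4a rose by 0.47 ± 0.10 and 0.81 ± 0.10, and Ppara fell by 0.80 and 0.59. Ppara had means of only 7.96 to 13.9 normalized counts, and within litters its differences were -0.59 in normal and 0.12 in diabetic pregnancies, neither called, while without the filter the diabetic call was lost (adjusted p = 0.0615). Receptors rose for 3 of 12 and 4 of 12 and fell for 0 and 1, with medians of 0.01 and 0.06, and Scarb1 rose by 0.41 ± 0.10 and 0.51 ± 0.10.

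Of the 5 other apolipoproteins tested (medians 0.27 and 0.55), 3 rose in diabetic yolk sacs (Apoo 0.89 ± 0.29, Apoc3 0.63 ± 0.14 and Apoa5 0.55 ± 0.16). Their differences in normal yolk sacs were -0.02 ± 0.31, 0.35 ± 0.14 and 0.34 ± 0.16 and did not pass the test (adjusted p = 0.978, 0.113 and 0.187). Within diabetic litters, where D24M15, D28M23 and D28M36 alone held both stages, none of the 3 was called (edgeR adjusted p of 0.182, 0.0653 and 0.0955). Without litter D24M15 Apoo was not called (0.72, edgeR adjusted p = 0.125). Lipase and remodelling genes rose for 1 of 5 in normal and 4 of 5 in diabetic yolk sacs, with Lipa at 0.36 ± 0.08 and 0.52 ± 0.08 and medians of 0.28 and 0.54. The lists held no gene whose stage effect in yolk sacs was called as different between conditions (0% of all genes tested, as above).

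Among embryos of 7 to 9 somite pairs, 4 of 14 receptor genes were lower in diabetic than in normal pregnancies, among them Lrp1, Lrp2 and Lrp8. Of all 10628 genes tested, 413 were lower and 9.09% were called in either direction, and the median over the list was -0.04. At 5 to 6 somite pairs 2 of 14 receptor genes were lower, where 96 of 11004 genes were lower and 1.46% were called in either direction. Neither of the 2 was called with litter as a random block. The log2 differences at 7 to 9 somite pairs were -0.55 ± 0.16 for Lrp1 (SE, edgeR adjusted p = 0.0268), -0.50 ± 0.12 for Lrp2 (adjusted p = 0.0092) and -0.44 ± 0.13 for Lrp8 (adjusted p = 0.0268). Lrp2 had means of 136 ± 26.95 in normal and 95.6 ± 26.9 in diabetic embryos (SD, n = 16 each), and its call held in each alternative except counts summed per litter (adjusted p = 0.0677). With litter as a random block Lrp1 and Lrp8 were not called. Lrp1 was also lost without litters D28M23, D28M31 or N28M05 (adjusted p of 0.0504, 0.0722 and 0.0678), and Lrp8 without D24M15 or N28M05 (0.151 and 0.141). Of 11 assembly genes, Fitm2 (0.50), Plin2 (0.48) and Sar1b (0.28) were higher and Soat1 (-0.29) was lower, with adjusted p from 0.0353 to 0.0465. Leaving out single litters took away the call of Plin2 for 7 litters, of Fitm2 and Sar1b for 8 each and of Soat1 for 11, with adjusted p of at most 0.123. None of the 11 regulators, 5 lipase and remodelling genes and 2 other apolipoproteins tested was called at 7 to 9 somite pairs.

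Female and male yolk sacs, by the yolk sac's own sex label, were compared over both stages and conditions, where 0.0921% of 10857 genes were called. In concepti D28M27C and N28M07E that label differed from the embryo's. No member was called by edgeR, with 4 at an unadjusted p under 0.05, where 444 of all genes tested were. With litter as a random block limma also called 0. All 9 differences were positive in females, from 0.02 for Apoa4 to 0.45 ± 0.13 for Apoc2 (adjusted p = 0.43), and with the litter block the adjusted p of Apoc2 was 0.185. Their median was 0.24, beside 0.00 over all genes tested. Since members other than Apob varied together in yolk sacs, these are not 9 separate observations.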

How the data were processed

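RNA of embryos and visceral yolk sacs was measured by QuantSeq 3′ sequencing with unique molecular identifiers. The authors deposited raw counts per gene, made by STAR alignment to mm10, collapse of identifiers and HTSeq counting (versions and strand setting are not given in the sources used here). Levels are counts divided by DESeq2 1.42.0 size factors over all libraries without duplicates. Groups came from the labels of tissue, maternal condition and somite number, and 4 duplicate libraries marked as batch controls were left out of all groups. Tests used edgeR 4.0.16 in R 4.3.3, with TMM normalization, its filter on low counts (minimum count 10) and the quasi-likelihood test. In each comparison p-values were adjusted by Benjamini-Hochberg across the genes that passed the filter, at a threshold of 0.05. Diabetic was compared with normal within tissue and stage, yolk sac with embryo within stage, later with earlier stage within tissue and condition, and female with male yolk sacs. Log values for plots and correlations used a pseudocount of 1. Total counts per library set the precision, and confidence intervals cover 95%.

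Within a tissue each library is a separate conceptus, but littermates share a dam, so p-values treat as independent what may not be. Embryo and yolk sac of a conceptus are paired by its label, and the unpaired test was repeated with conceptus as a blocking term. The pairing rests on the conceptus name in the labels, and 2 of the 66 concepti (D28M27C and N28M07E) carry different sex labels on embryo and yolk sac. These were kept, and an alternative left them out. Alternatives were DESeq2, RLE size factors, no filter, litter as a random block (limma 3.58.1) or summed, covariates, and leaving out each litter in turn. A fixed litter block for stage, the title number for stage, and the duplicates in place of originals were added after seeing the data.

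The members, the lists of pathway genes by role and the lists of cell type markers were chosen with earlier results of these data known. Named were all members, up to 5 called genes in each direction per list with the largest change, and the 5 genes most like the members' mean. Promoter sequences are RefSeq's. The edgeR test was tested on simulated counts. Results of some genes that the naming rule covers are not reported here.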

Additional observations from a re-analysis of the deposited data

Results flagged for a closer look

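The duplicate libraries were outside every comparison, and 1 of them differed from its original for the members. For the embryo of conceptus D24M15G (diabetic, 8 somite pairs) the original held 3.90 times the normalized count of the duplicate for Apoa1, 5.21 times for Apoa2, 4.76 times for Apoa4, 3.31 times for Apob and 4.00 times for Apom. Over 6957 genes with enough counts, 19 were more than 3-fold higher in the original, and 18 of these 19 were among genes called higher in yolk sacs. The remaining gene, Xist, stood at 198 normalized counts in the original and 58.2 in the duplicate, and both libraries are labelled male. The median ratio was 7.99 over the primitive erythroid markers with counts, 2.75 over the visceral endoderm markers and 0.996 over the neural and somite markers. The depth of the original was 2535105 counts, and the cause was not tested.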

How the results depend on the processing

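All 9 members kept their call of higher levels in yolk sac at both stages under each alternative, and a replicate block by conceptus changed no call. With that block the dependence of the tissue difference on diabetes changed sign only near 0, to 0.024 for Apoc1 and 0.040 for Apoe at 5 to 6 somite pairs and to 0.0024 for Mttp at 7 to 9, and with duplicates in place of originals it was 0.063 for Mttp. The counts of 6 and 7 members that rose between stages in yolk sacs became 4 and 5 with litter as a fixed block, and the 6 became 5 without the filter on low counts.

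Counts of 0 called members became 1 in 3 other cases, and the cause was not tested. In embryos at 7 to 9 somite pairs DESeq2 called 1 member for diabetes (Apoa4). In normal embryos litter as a random block called 1 member for stage (Apoe, -0.55, adjusted p = 0.0390, limma), and with litter as a fixed block 1 member was called for the interaction of stage and diabetes in embryos (Apoe, 1.001, adjusted p = 0.0464, edgeR).

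Signs turned for members whose difference was not called, and for Ppara. For diabetic minus normal in embryos at 5 to 6 somite pairs, Apoa1 became -0.24 and Apoe -0.14 with litter as a random block, Apoa1 -0.047 and Apoe -0.12 in per-litter sums, and Apoe -0.042 with somite number and sex and -0.011 with the title number as covariates. In embryos at 7 to 9 somite pairs the random litter block gave -0.14 for Apob. In yolk sacs Apob became -0.016 at 5 to 6 in per-litter sums and 0.038 at 7 to 9 with the title number. There Apoc2 became -0.0044 with that block and -0.029 with somite number and sex, and Mttp 0.0098 with the title number and 0.0060 in per-litter sums.

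Leaving out each litter in turn, the diabetic minus normal differences in embryos at 5 to 6 somite pairs ran from -0.29 to 0.34 for Apoa1, -0.12 to 1.08 for Apob, -0.28 to 0.16 for Apoe, -0.16 to 0.42 for Apom and -0.31 to 0.024 for Mttp, with the lowest value of each without litter D28M53. In the later embryos Mttp ran from -0.12 to 0.0030. In yolk sacs at 5 to 6 they ran from -0.23 to 0.044 for Apoa1, -0.067 to 0.35 for Apoa2, -0.054 to 0.20 for Apob, -0.22 to 0.046 for Apoc1, -0.097 to 0.028 for Apoe and -0.092 to 0.0083 for Mttp. In later yolk sacs they ran from -0.047 to 0.25 for Apoa1, -0.59 to 0.22 for Apob, -0.18 to 0.33 for Apoc2 and -0.11 to 0.076 for Mttp.

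For stage, litter as a fixed block gave 0.37 for Apob, 0.49 for Apoe and 0.27 for Mttp in diabetic embryos, and 0.083 for Apob and 0.12 for Ppara in diabetic yolk sacs. The interaction of stage with diabetes under that block was 1.01 for Apob in embryos, and 0.45 for Apob and 0.00069 for Mttp in yolk sacs. Without litter D24M15 it was -0.015 for Mttp in embryos, and 0.0042 for Apob, 0.18 for Apoc2 and 0.12 for Mttp in yolk sacs. It was -0.018 for Mttp in embryos without the concepti with 2 sex labels, and 0.011 for Mttp in yolk sacs with the title number. The stage difference of Mttp in diabetic yolk sacs was -0.0056 with DESeq2, -0.0044 with RLE size factors, -0.013 without the filter and -0.018 without the concepti with 2 sex labels.

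Depth limits the embryo values, where Apoa2, Apoa4, Apoc1 and Apoc2 had group means of at most 16.8 normalized counts and were below the filter in the tests for diabetes. Litters are few (7 to 10 per group in normal, 6 to 9 in diabetic pregnancies), and fits that take litters into account lost calls of receptor and assembly genes in embryos.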
